A study of Mus musculus with 4 samples.

Results

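The 9 loci described here are Tmprss5, Nipal4, Masp1, Izumo1r, Mmp7, Gpr37l1, Rnf144a, Il12a and Ppfibp1, out of 21883 protein-coding mouse genes counted. They were chosen by name for high read counts in fetal mammary nuclei, over the gene itself or over regulatory regions around it. Fetal and adult reads made that choice, so every fetal-over-adult value of these loci below is a description and carries no test. For gene windows, only the difference of that value between lineages was tested, and that test is not independent of the choice. Regions around the loci are given as called or not between the stages, and these calls are descriptions too. The question asked of them was whether the opening seen at the fetal stage was shared by deposited nucleus classes 4, 5, 9 and 12.

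The data are single-nucleus ATAC-seq reads, in which the transposase Tn5 cuts and tags chromatin where it is open. Nuclei came from mammary epithelium of wild-type CD1 mice, an outbred strain, sorted as EpCAM+ and Lin-. There were 2 libraries from embryonic day 18 and 2 from adults of 8 weeks, each called a biological replicate in the labels, with 16 tagmentation wells per fetal and 32 per adult library. How many animals each library pooled is not given in the sources used here, so the spread between libraries may be partly technical. The libraries held 882 and 1695 fetal and 2465 and 2804 adult nuclei, with medians of 4420 to 7488 reads per nucleus. Each library holds 1 stage, so stage and library preparation cannot be told apart.

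The 9 genes act in different places. Tmprss5 is a membrane-anchored serine protease, Mmp7 (matrilysin) is a secreted metalloproteinase that cleaves matrix and cell-surface proteins, and Masp1 is the serine protease that starts the lectin pathway of complement. Nipal4 is a membrane protein of the NIPA-like magnesium transporter family, known for its role in the lipid barrier of the epidermis. Izumo1r (Juno) is a member of the folate receptor family and the egg's receptor for the sperm protein Izumo1. Gpr37l1 is an orphan G protein-coupled receptor known mainly from glia. Il12a encodes the p35 chain of interleukin 12. Rnf144a is a RING-between-RING ubiquitin ligase, and Ppfibp1 encodes liprin beta 1, a scaffold protein of the cell edge. An open promoter allows transcription but is not a measure of it, and open intronic or intergenic sites often act as enhancers, sometimes of a neighbouring gene.

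In 5 of the loci a deposited region of 1000 bases held a RefSeq start of the gene. For Tmprss5, Nipal4 and Mmp7, the 3 of these with the largest fetal-over-adult values at the start, the 250 bases before it are shown. They are RefSeq sequences of build GRCm38.p6, written 5′ to 3′ along the transcribed strand, and lie at chr9:49102478-49102727 on the plus strand, chr11:46166360-46166609 on the minus strand and chr9:7691840-7692089 on the plus strand. Capitals mark matches, on either strand, to the letters of 8 motifs: TGANTCA (AP-1), TTGGC (nuclear factor I), ACAAT (SOX), GGAATG (TEAD), AACCNGTT (GRHL), GCCNNNGGC (TFAP2), TGTGGT (RUNX) and TGTTTAC (forkhead). The full nuclear factor I site and the E-box letters CANNTG were searched too, and E-box matches are left in lower case.
Tmprss5: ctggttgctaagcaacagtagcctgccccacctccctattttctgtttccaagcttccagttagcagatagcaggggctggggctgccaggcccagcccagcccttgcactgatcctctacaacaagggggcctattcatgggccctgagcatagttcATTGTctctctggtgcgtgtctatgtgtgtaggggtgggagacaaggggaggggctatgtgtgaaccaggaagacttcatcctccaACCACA
Nipal4: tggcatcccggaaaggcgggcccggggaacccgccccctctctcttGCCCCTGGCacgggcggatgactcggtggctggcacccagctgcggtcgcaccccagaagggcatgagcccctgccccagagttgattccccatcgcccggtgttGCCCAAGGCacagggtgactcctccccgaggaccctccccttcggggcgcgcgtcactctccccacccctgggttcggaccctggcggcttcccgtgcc
Mmp7: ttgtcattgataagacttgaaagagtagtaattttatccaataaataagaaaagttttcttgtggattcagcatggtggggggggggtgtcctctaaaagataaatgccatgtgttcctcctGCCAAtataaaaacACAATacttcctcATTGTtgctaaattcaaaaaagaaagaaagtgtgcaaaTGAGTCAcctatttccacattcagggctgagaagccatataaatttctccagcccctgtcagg
The sequences share no motif set. The stretch before Tmprss5 has 1 SOX match that begins 92 bases before the start and 1 RUNX match that begins 6 bases before it. RefSeq lists a second Tmprss5 start in the same region, and the 250 bases before that one, chr9:49102529-49102778, also hold 1 AP-1 match, 38 bases before it. The GC-rich stretch before Nipal4 (71.6% G or C, against 55.6% for Tmprss5 and 38% for Mmp7) has 2 TFAP2 matches, at 204 and 99 bases. The stretch before Mmp7 has 1 AP-1 match, 63 bases before the start, beside 1 nuclear factor I and 2 SOX matches. Among 32817 RefSeq promoter stretches of the same length, the AP-1 letters occurred in 6.75%, TFAP2 in 13.7%, RUNX in 14.04%, SOX in 27.7% and TTGGC in 41.5%. The shares were 12.6% for TEAD, 1.78% for GRHL, 3.16% for the forkhead letters, 0.0366% for the full nuclear factor I site and 66.2% for the E-box. A match describes letters in the window and is not a bound site.

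Levels over a gene are given as CPM, the reads of kept nuclei over the gene span with 2000 bases on either side, per 1000000 TMM-scaled reads. For library levels, the scaling used the reads in all gene windows tested. Class levels and the levels of the lineage comparison were each scaled anew over their own sums and gene windows. The same sum can therefore differ slightly between them. All 9 loci were higher in both fetal than in both adult libraries. Over all gene windows, 11.3% were called higher in fetal nuclei (edgeR quasi-likelihood test, Benjamini-Hochberg adjusted p under 0.05), and the median log2 fetal-over-adult value was 0.01. The called share is another measure than the order of the libraries, whose share over all gene windows was not counted. These values made the choice, so nothing is read from the count of 9 loci.

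Among the proteases, Tmprss5 had the widest gap. Its level was 44.1 and 43.5 CPM in the fetal and 2.84 and 6.34 CPM in the adult libraries, a log2 difference of 3.20. Leaving out adult replicate 2 gave 3.92. Mmp7 stood at 11.0 and 15.4 CPM against 4.46 and 5.85 CPM, a log2 difference of 1.37. Masp1 was at 79.7 and 92.0 CPM in fetal and 30.2 and 41.6 CPM in adult libraries, a log2 difference of 1.26. The adult level of Masp1 thus lay well above that of Tmprss5, over a window of 73.5 kb against 42.3 kb.

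Of the membrane proteins, Nipal4 came closest to overlap between the stages, at 30.1 and 32.7 CPM in fetal and 11.7 and 22.9 CPM in adult libraries. Its log2 difference was 0.85 over all libraries, and it lay between 0.46 and 1.41 over the settings tried. Izumo1r was at 26.2 and 35.3 CPM against 9.10 and 12.5 CPM, a log2 difference of 1.52. Gpr37l1 was at 17.0 and 24.8 CPM against 7.68 and 6.69 CPM, a log2 difference of 1.57 that fell to 0.72 when only the gene span without its flanks was counted. Part of the flanks belongs to the window of the neighbour Arl8a.

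Il12a stood at 13.1 and 16.5 CPM in fetal and 3.03 and 3.73 CPM in adult libraries, a log2 difference of 2.13, and of 0.90 without the flanks. Rnf144a was at 96.1 and 104.4 CPM against 37.9 and 38.2 CPM, a log2 difference of 1.40. Ppfibp1, the locus with the longest window at 149.4 kb, was at 230.2 and 252.6 CPM against 151.6 and 158.4 CPM, and its log2 difference of 0.64 was the smallest. Per kb of window the mean fetal levels were more alike, from 0.891 CPM for Rnf144a to 1.83 CPM for Gpr37l1. Windows of Tmprss5 (with Zw10), Nipal4 (Adam19), Masp1 (Rtp4), Gpr37l1 (Arl8a) and Ppfibp1 (Rep15 and 1700034J05Rik) overlap the windows of other genes, and their reads cannot be assigned to 1 of them.

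Reads were then summed per deposited class and library. The authors' classes carry numbers and no names, so marker lists say which lineage each resembles. The summed level of 9 basal markers was 671 and 802 CPM in fetal class 4, 649.8 and 732 CPM in class 12, 506 and 480.4 CPM in class 9 and 432 and 442 CPM in class 5. Adult classes 1 and 8 stood at 1419 to 1666 CPM on that list, and adult classes 3 and 7 at 309 to 468 CPM, under fetal class 9. The 7 luminal progenitor markers reached 479 and 472 CPM in fetal class 9 and 563 to 686 CPM in adult classes 3 and 7. They were at 390 and 385 CPM in fetal class 5, 362 and 343 CPM in class 4 and 316 and 281 CPM in class 12. Adult classes 2 and 11 led on the 7 mature luminal markers, at 1093 to 1288 CPM. Fetal classes 4, 5, 9 and 12 lay at 350.5 to 456.1 CPM on these. The sort was for epithelial cells, and markers of other cell types were summed as well. Keratinocyte markers summed to 58.6 to 87.0 CPM over the 8 sums of fetal classes 4, 5, 9 and 12, and to 52.2 to 106.5 CPM over the 14 sums of the main adult classes. The ranges were 43.9 to 95.4 against 44.9 to 107.7 CPM for immune, 100.5 to 167.1 against 93.5 to 187.9 CPM for endothelial and 129.3 to 231.6 against 126.4 to 193.2 CPM for stromal markers. Glial and melanocyte markers, of interest beside Gpr37l1, ranged from 354.5 to 475.9 CPM in the fetal and from 271.2 to 442.2 CPM in the adult sums. No listed marker was without reads over the fetal sums. The part of other cells in the 9 loci was not tested.

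**Figure D1:**
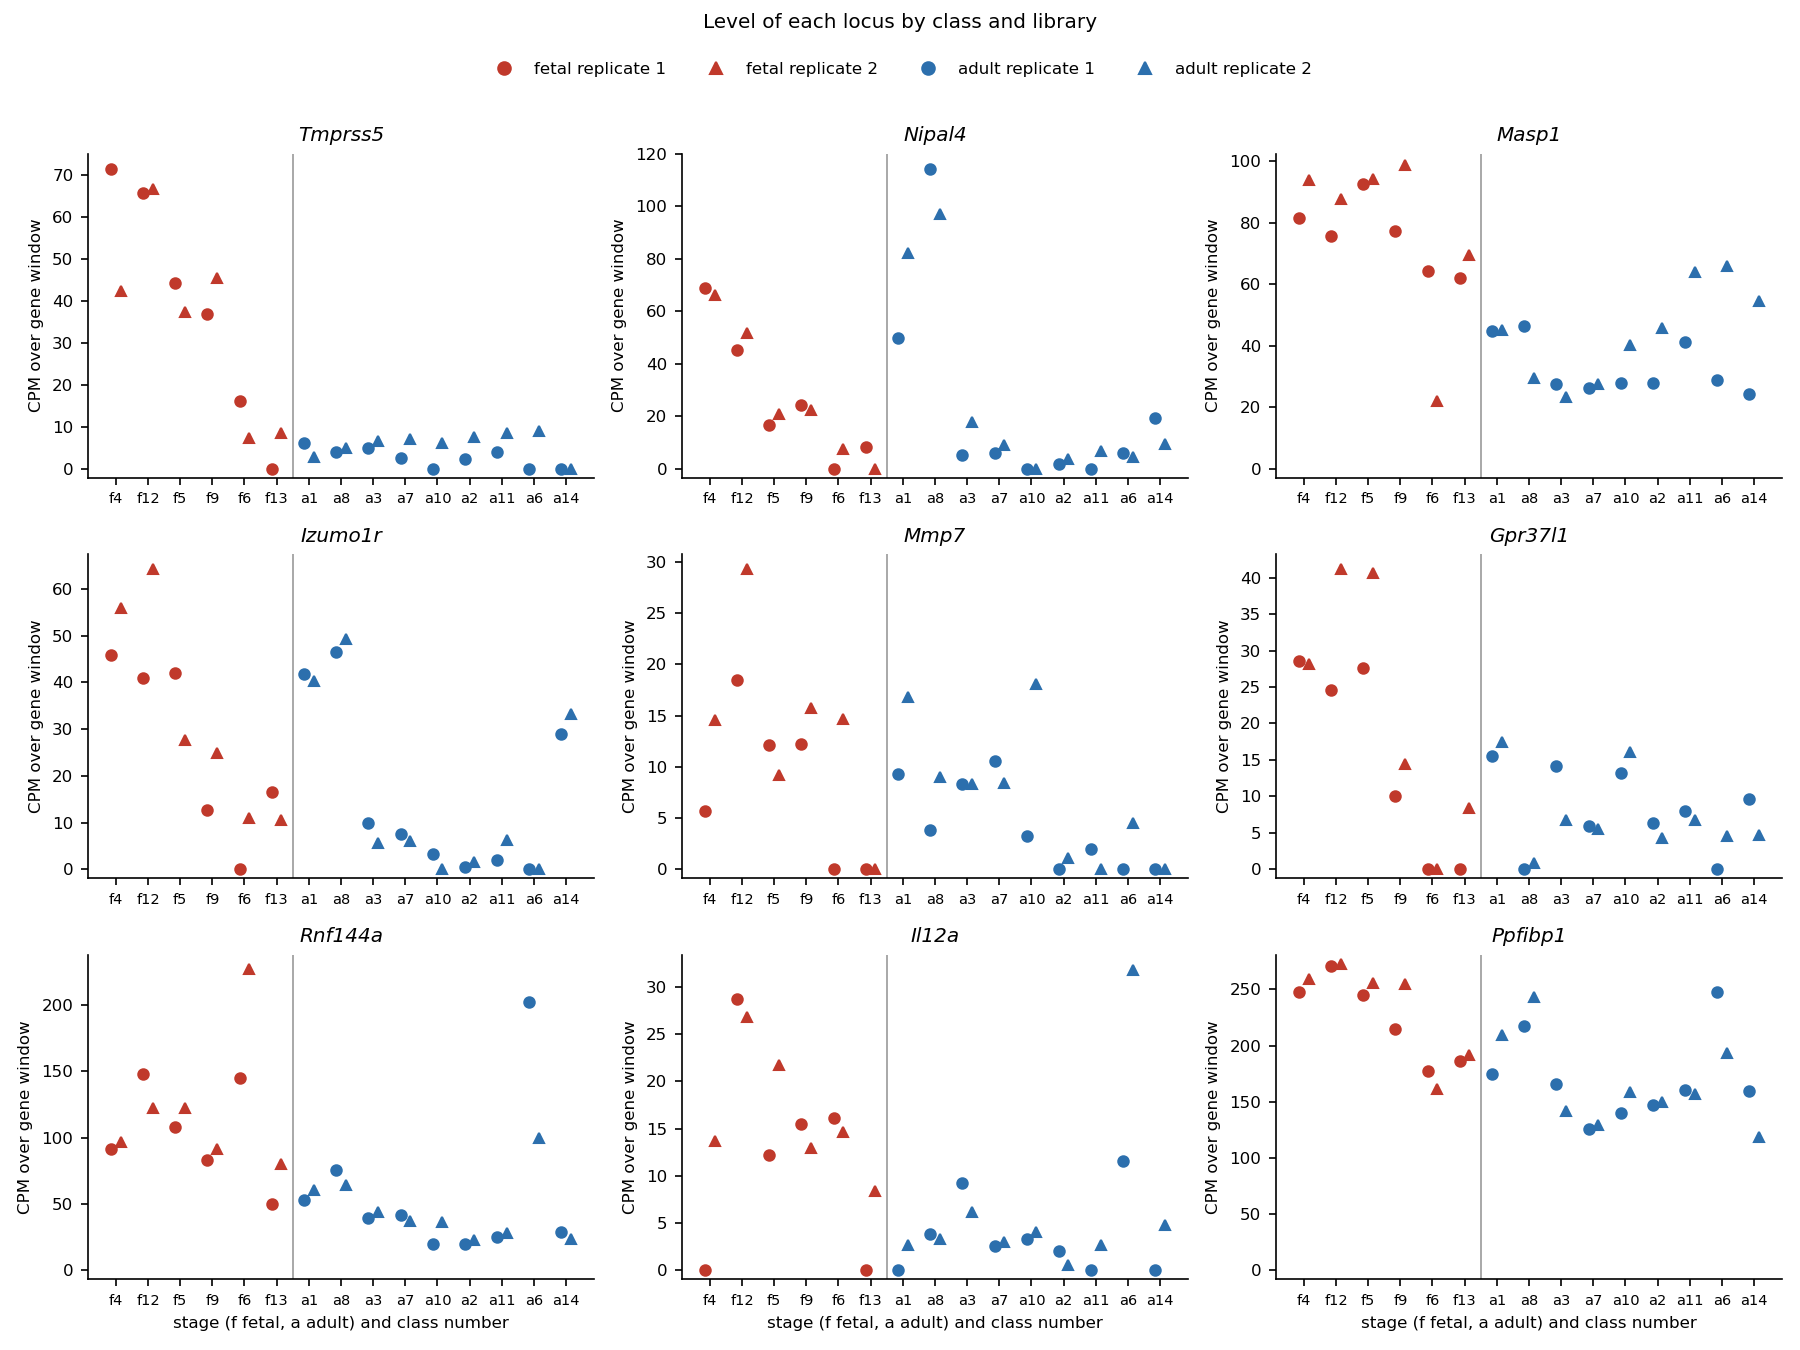
Level of each locus in CPM over the gene window (y axis, linear) for each class with at least 20 nuclei in a library, fetal classes in red on the left of each panel and adult classes in blue on the right; circles are replicate 1 and triangles replicate 2. Tmprss5, Masp1 and Rnf144a lie above all adult sums of classes 1, 2, 3, 7, 8, 10 and 11 in every sum of fetal classes 4, 5, 9 and 12, while Nipal4 and Izumo1r have sums in adult classes 1 and 8 that overlap those of fetal class 4.

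In the comparisons of sums that follow, fetal sums are the 8 sums of classes 4, 5, 9 and 12 and adult sums the 14 sums of classes 1, 2, 3, 7, 8, 10 and 11. Classes 6, 13 and 14 are left out of these ranges and rankings, and several of them go past a range given. In every locus the mean of each of the 4 fetal classes lay above the median of the 14 adult sums. The share of all genes for which this holds was not counted, so nothing is read from it. The margin over the adult median differed widely. The lowest fetal class stood 8.21 times above that median for Tmprss5, 3.07 times for Izumo1r, 2.96 times for Nipal4, 2.40 times for Il12a, 2.35 times for Masp1, 2.30 times for Rnf144a, 1.83 times for Gpr37l1, 1.49 times for Ppfibp1 and 1.21 times for Mmp7. A stricter count asked for all 8 fetal sums above all 14 adult sums. Tmprss5, Masp1 and Rnf144a met it, 3 of the 9 loci, against 0.487% of 16433 genes (80 genes). The loci were chosen on the same reads, so nothing follows from that difference. With levels per 1000000 reads of the nuclei, 4 loci met it. In CPM, 7 of the 8 fetal sums lay above all adult sums for Il12a and Ppfibp1, and 6 for Gpr37l1. For Izumo1r and Mmp7 2 of the 8 did so, and for Nipal4 0.

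Tmprss5 was open in all 4 fetal classes and had few reads in the 7 adult classes. Over the 8 fetal sums it ranged from 36.8 to 71.5 CPM with a median of 44.8 CPM, and over the 14 adult sums from 0 to 8.49 CPM with a median of 4.97 CPM. Class 12 had the highest fetal mean at 66.1 ± 0.783 CPM (SD, n = 2) and class 5 the lowest at 40.8 ± 4.78 CPM. Within class 4 the libraries were far apart, at 71.5 and 42.3 CPM.

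Masp1 was the most even of the loci across classes 4, 5, 9 and 12. Its class means ran only from 81.8 CPM in class 12 to 93.5 CPM in class 5, a ratio of 1.14. The adult sums ran from 23.4 to 63.9 CPM. The top of these 14 sums, in class 11 of adult replicate 2, stayed under the lowest of the 8 fetal sums, 75.8 CPM. Outside them, Masp1 was at 65.9 CPM in class 6 of adult replicate 2, and at 64.4 and 22.0 CPM in fetal class 6. Ppfibp1 was nearly as even, with a ratio of 1.16 between its highest and lowest fetal class. Its lowest fetal sum, 214.9 CPM in class 9 of replicate 1, was overtaken by adult class 8 at 217 and 243.3 CPM.

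Rnf144a ranged from 83.2 to 147.6 CPM over the fetal sums, highest in class 12 and lowest in class 9. Over the 14 adult sums it went from 19.5 CPM to 75.6 CPM, with the upper end in class 8, and it was higher still in adult class 6. Fetal class 12 also had the highest stromal marker sums of the 4 fetal classes, 231.6 and 197.6 CPM against at most 193.2 CPM in the 14 adult sums, and the part of that in the class 12 levels of Rnf144a, Il12a and Mmp7 was not tested. Il12a was highest in class 12, at 28.7 and 26.8 CPM, and lay between 12.2 and 21.7 CPM in classes 5 and 9. In class 4 it had no read in replicate 1, where the exact 95% Poisson interval reached 5.28 CPM, and 13.6 CPM in replicate 2. The highest of the 14 adult sums of Il12a was 9.18 CPM, in class 3, while class 6 of the adult libraries stood at 11.5 and 31.8 CPM. Mmp7 was the thinnest of the fetal patterns, with 18.4 and 29.3 CPM in class 12 and between 5.72 and 15.7 CPM in the other 3 classes. Adult sums of Mmp7 reached 18.1 CPM in class 10 and 16.8 CPM in class 1. Only the class 12 sums stood above them. The lower class 12 sum, 18.4 CPM, and the adult class 10 sum of 18.1 CPM rested on 9 reads each. Their exact 95% Poisson intervals overlapped, at 8.44 to 35.0 and 8.27 to 34.3 CPM. Mmp7 was nearly unread in adult classes 2 and 11, with at most 2.01 CPM.

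The other 3 loci varied more among the fetal classes. Nipal4 was at 68.7 and 66.3 CPM in fetal class 4 and at 45.1 and 51.7 CPM in class 12, but at 16.6 to 24.1 CPM in classes 5 and 9. Izumo1r was at 45.8 and 56.0 CPM in class 4 and at 41.0 and 64.2 CPM in class 12, against 12.7 and 24.8 CPM in class 9. Class 5, with the lowest basal marker sums of the 4, was not low in Izumo1r, at 42.0 and 27.7 CPM. In adult nuclei both were read mainly in classes 1 and 8, the classes with the highest basal marker sums, where Nipal4 lay between 49.6 and 114.3 CPM and Izumo1r between 40.4 and 49.3 CPM. Adult class 14 also had Izumo1r reads, at 29.0 and 33.2 CPM. Gpr37l1 showed another order. It was at 27.6 and 40.7 CPM in class 5, 24.6 and 41.1 CPM in class 12 and 28.6 and 28.2 CPM in class 4, and lowest in class 9 at 10.0 and 14.5 CPM. Adult class 8, with the highest Nipal4, had 0 and 1 read over Gpr37l1 and an upper Poisson limit of 7.15 CPM in replicate 1. Adult class 1, at 15.5 and 17.5 CPM, lay above both sums of fetal class 9, and adult class 10, at 13.2 and 16.1 CPM, overlapped them. Adult classes 2, 3, 7 and 11 averaged 5.38 to 10.4 CPM.

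The difference among the 4 fetal classes was tested with edgeR over all genes, with library as a term. Of the 9 loci, 3 differed among the classes, beside 9.26% of all 16638 genes tested: Nipal4 (adjusted p = 3.63e-06), Izumo1r (adjusted p = 0.00056) and Gpr37l1 (adjusted p = 0.00724). Rnf144a (0.0690), Tmprss5 (0.179), Il12a (0.182), Mmp7 (0.328), Ppfibp1 (0.709) and Masp1 (0.962) did not pass the adjusted p of 0.05, which does not show that they were equal in all classes. The authors drew the classes from the same nuclei, so this test is not independent of the classing. With a single fetal library the classes have no replicates, and the spread must come from the adult sums. In such fits the call was lost for all 3 loci, with adjusted p-values of 0.247 and 0.290 for Nipal4, 0.663 and 0.476 for Izumo1r and 1.00 and 0.744 for Gpr37l1, without fetal replicate 1 and 2 in turn. Fitting all class sums of the 4 libraries at once, fetal and adult, kept Nipal4 and lost Izumo1r (0.0831) and Gpr37l1 (0.333). Counting gene spans without flanks did the same (0.262 and 0.668).

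Adult classes 1, 2, 3, 7, 8, 10 and 11 were compared in the same way. Of the 9 loci, 6 had enough adult reads for this test and all 6 differed among the adult classes, where 46.8% of all genes did. The edgeR adjusted p-values were 8.88e-16 for Nipal4, 2.36e-10 for Izumo1r, 2.63e-05 for Rnf144a, 0.000185 for Ppfibp1, 0.0117 for Gpr37l1 and 0.0427 for Masp1. The Masp1 call was lost with DESeq2 (0.100), without library as a term (0.0663) and over the span without flanks (0.0634). Tmprss5, Mmp7 and Il12a stayed under the minimum mean of 10 reads per adult sum.

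**Figure D2:**
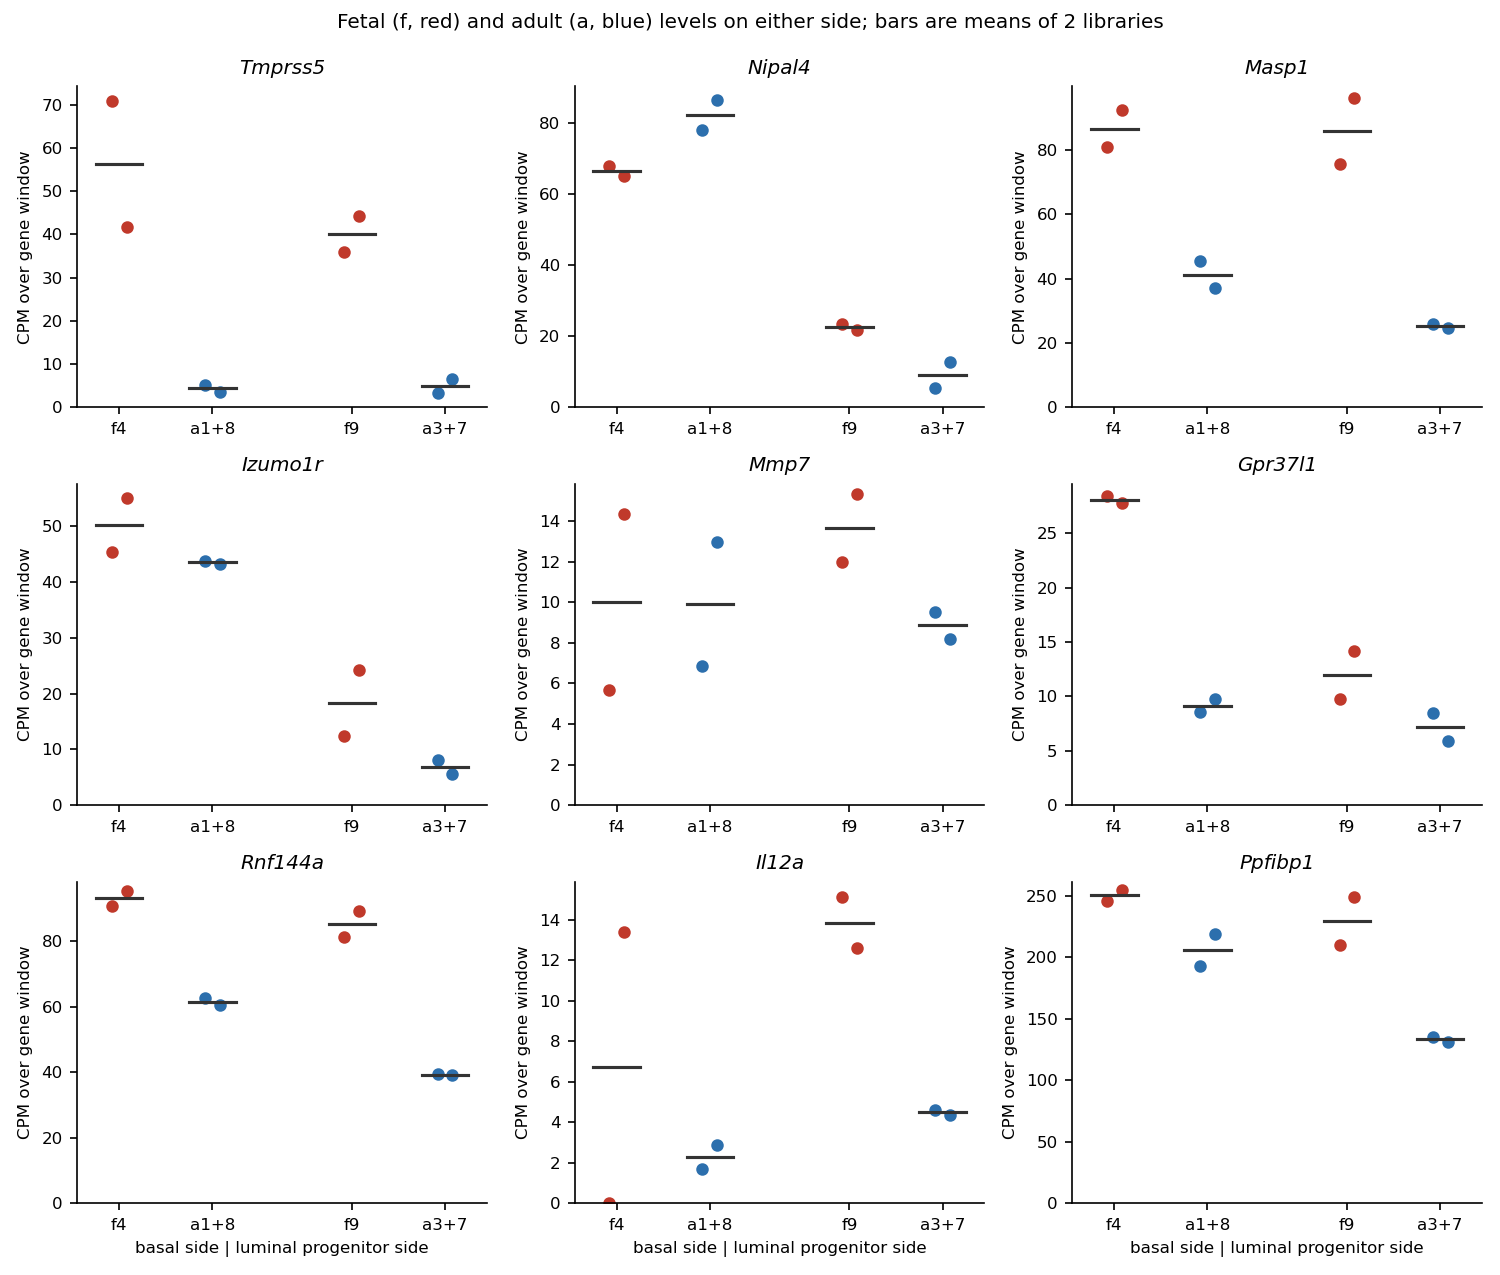
Level in CPM over the gene window (y axis, from 0) in fetal class 4 and pooled adult classes 1 and 8, called the basal side, and in fetal class 9 and pooled adult classes 3 and 7, called the luminal progenitor side. Points are libraries and bars are means of 2 libraries; Nipal4 is lower in fetal than in adult nuclei on the basal side, at 66.7 against 82.3 CPM, and higher on the other, at 22.7 against 9.12 CPM.

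Whether the stage difference itself depended on lineage was tested with an interaction term. It set fetal class 4 against adult classes 1 and 8 (basal side) and fetal class 9 against adult classes 3 and 7 (luminal progenitor side). The loci were chosen on fetal and adult reads and the classes were drawn from the same nuclei, so this test is independent of neither. Only Nipal4, 1 of the 9 loci, passed, beside 6.07% of 17064 genes, 3.64% with a higher and 2.43% with a lower stage value on the luminal progenitor side. On the basal side its level was 68.1 and 65.2 CPM in fetal and 78.1 and 86.5 CPM in adult sums. On the luminal progenitor side it was 23.6 and 21.8 CPM in fetal and 5.44 and 12.8 CPM in adult sums. The fetal-over-adult log2 value was thus 1.63 higher on the luminal progenitor side (SE 0.379 derived from the F statistic, edgeR adjusted p = 0.00107). Without adult replicate 1 this was 1.19 with an adjusted p of 0.182, and DESeq2 gave 1.67 with an adjusted p of 0.0543.

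Izumo1r had the same direction without passing. It was at 45.4 and 55.0 CPM in fetal and 43.8 and 43.2 CPM in adult sums on the basal side, and at 12.4 and 24.2 CPM against 8.16 and 5.63 CPM on the luminal progenitor side (log2 difference 1.24, edgeR adjusted p = 0.0806). It passed without fetal replicate 1 (adjusted p = 0.0488) and with class 5 added to class 9 (adjusted p = 0.00926). Ppfibp1, with a log2 difference of 0.52 and an edgeR adjusted p of 0.0662, also passed with class 5 added (adjusted p = 0.0414). Tmprss5 was higher in fetal sums on both sides, 12.9 times on the basal and 8.09 times on the luminal progenitor side. Its interaction did not pass (log2 -0.72, edgeR adjusted p = 0.614). Mmp7 was at 5.68 and 14.3 CPM in fetal and 6.86 and 12.97 CPM in adult sums of the basal side, groups that overlap.

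Within and around the loci, reads were also counted over the deposited regions. Deposited promoter and distal regions are 1000 bases wide, and positions are in mm10, the build named in the submitters' processing notes. Within 50 kb of the 9 gene spans there were 172 regions, 23 promoter and 149 distal. Of the 23 promoter regions, 12 were called higher and 1 lower in fetal nuclei, beside 10.5% and 11% of all promoter regions tested. Of 127 distal regions with enough reads, 31 were higher and 15 lower, beside 16.6% and 18.8% of all distal regions tested. The regions that led to the choice are among them, so these counts are descriptions. Region levels below are CPM within the promoter list or within the distal list, and are not compared between the lists. Promoter regions were not tested among classes, so their class levels carry no p.

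**Figure D3:**
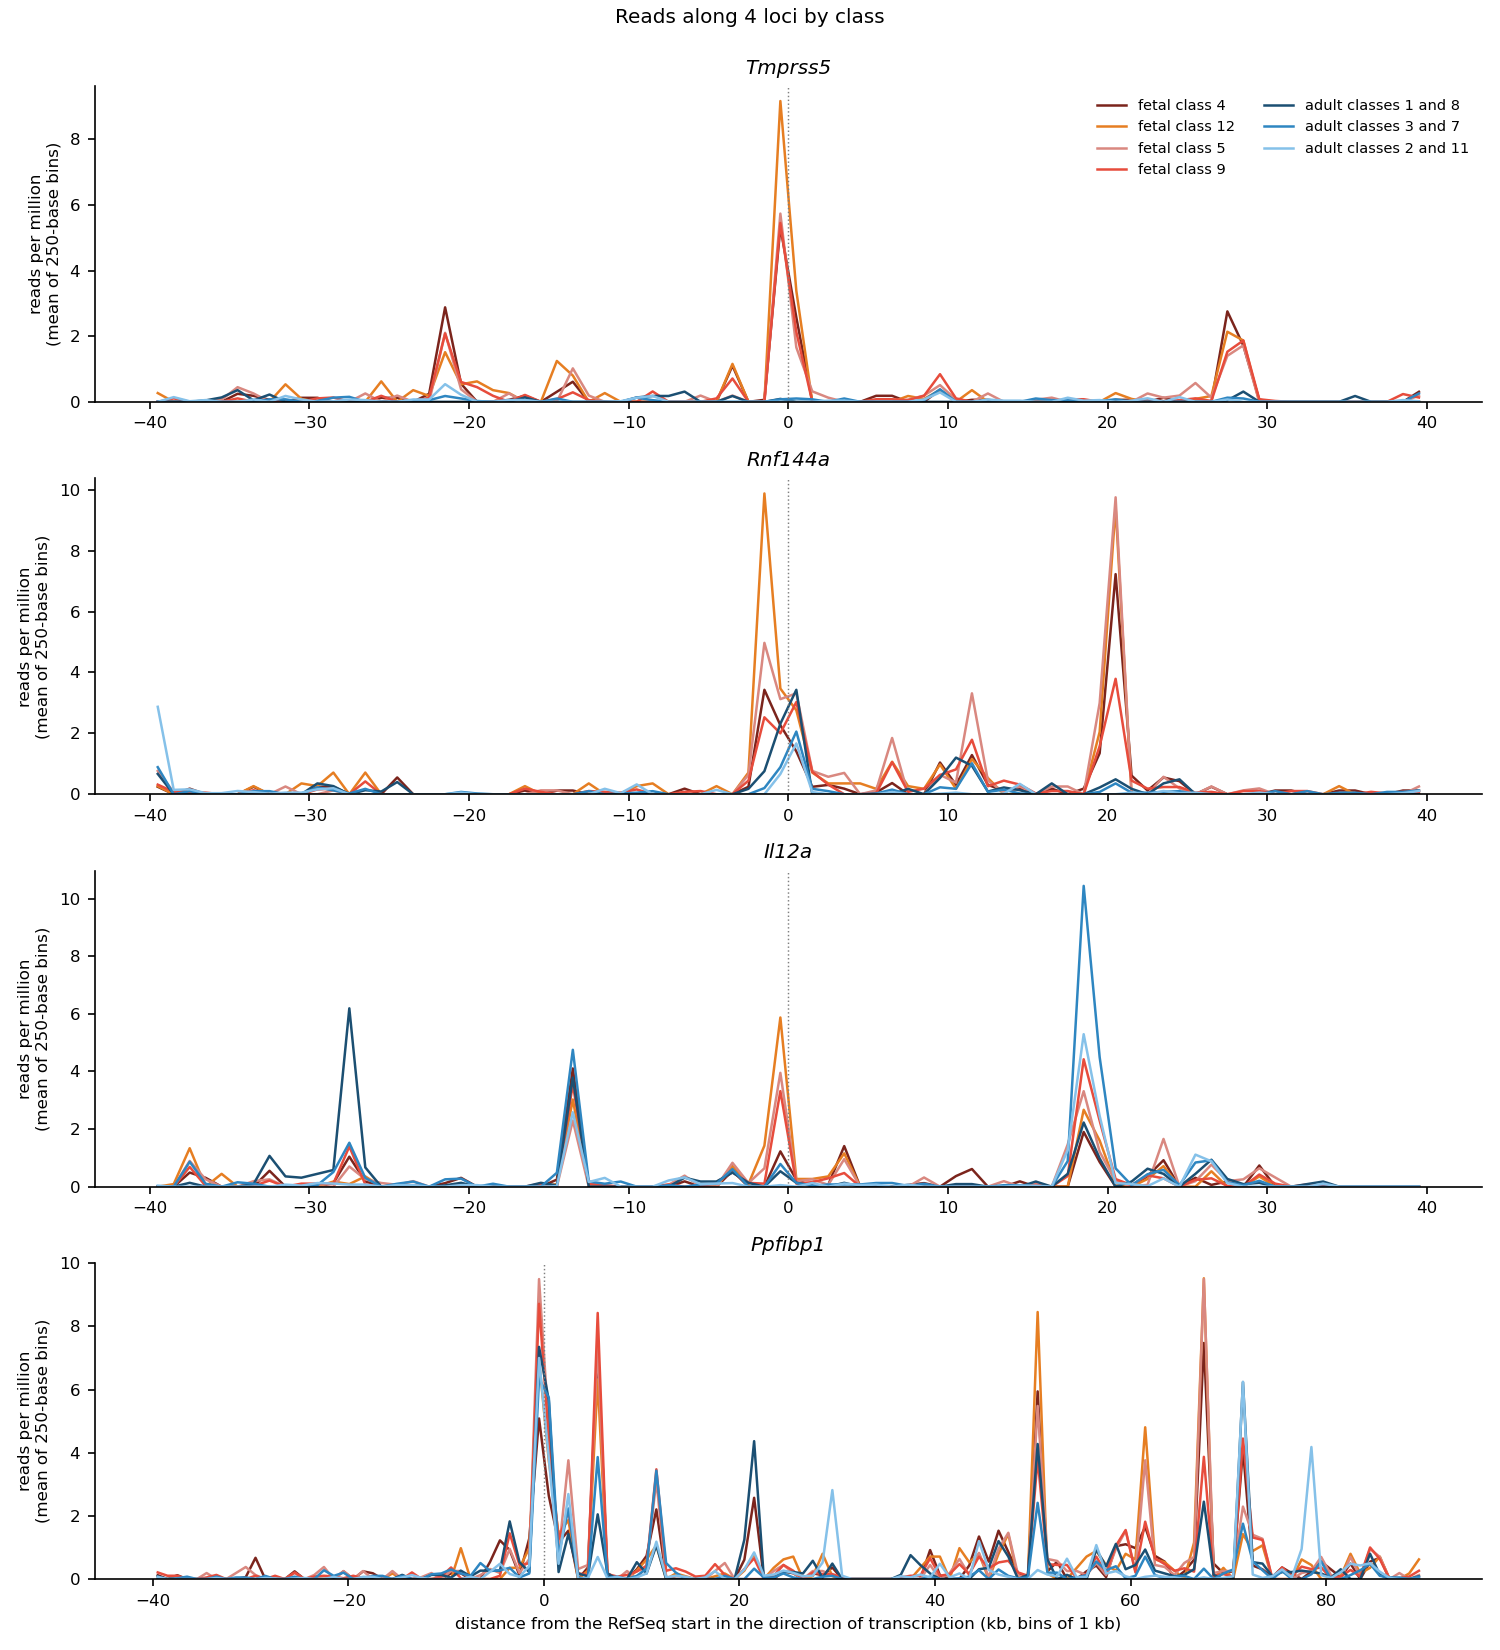
Reads per 1000000 reads of the nuclei of each class, as the mean of bins of 250 bases in steps of 1 kb (y axis, linear), against the distance from the RefSeq start in kb in the direction of transcription, for fetal classes 4, 5, 9 and 12 (reds) and pooled adult classes 1 and 8, 3 and 7, and 2 and 11 (blues). Tmprss5 peaks at its start in fetal classes alone among those drawn, Rnf144a next to its start and 20.3 kb into the gene, and Ppfibp1 has a fetal peak 67.5 kb in, while its start is open in all lines.

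The start of Tmprss5 carried the sharpest contrast. The region chr9:49102072-49103071, which contains the Tmprss5 stretch printed above and which the authors listed as distal, held 118 and 260 reads in fetal and 1 and 6 reads in adult libraries. Its fetal level was 46.2 ± 6.01 CPM and its adult level 0.484 ± 0.427 CPM (SD, n = 2), a log2 difference of 6.37. With so few adult reads this size depends on the adult library, from 5.74 without adult replicate 1 to 7.67 without adult replicate 2. All 4 fetal classes carried it, at 58.7 CPM in class 4, 53.6 in class 5, 63.7 in class 9 and 72.8 in class 12, and the test among fetal classes did not pass (edgeR adjusted p = 0.476). The region chr9:49130247-49131246, 28.0 kb downstream of the start, had 22 and 146 fetal and 4 and 9 adult reads. A deposited promoter region at chr9:49080995-49081994 had 39 and 84 fetal and 4 and 24 adult reads. It lies 21.2 kb upstream of that start but inside the annotated gene span, which begins at chr9:49079274. Its adult level was highest in class 11 of adult replicate 2, at 14.2 CPM.

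Mmp7 gave the opposite picture upstream of its start. The promoter region chr9:7691522-7692521, which contains the Mmp7 stretch with the AP-1 match, had 44 and 148 fetal and 35 and 60 adult reads, a log2 difference of 1.56. Class 12 was highest at 71.5 CPM, and classes 4, 5 and 9 lay between 32.5 and 38.4 CPM. In adult nuclei the region averaged 24.4 CPM in classes 1 and 8 and 22.6 CPM in classes 3 and 7, and had no read in classes 2 and 11. Of 7 tested distal regions within 50 kb, 3 were called, beside 18.8% of all distal regions called lower and 16.6% called higher. The 3 were all upstream and all lower in fetal nuclei, at log2 values of -2.60, -2.12 and -2.02. The distal region with the largest fetal excess, chr9:7721171-7722170, had 16 and 23 fetal and 26 and 22 adult reads, a log2 difference of 0.40.

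Masp1 had a fetal excess at 2 promoter regions and inside the gene. The region chr16:23518365-23519364 had 109 and 289 fetal and 25 and 35 adult reads, at 78.3 ± 5.12 against 7.91 ± 0.474 CPM (SD, n = 2), a log2 difference of 3.31. The 4 fetal classes were alike there, from 80.1 CPM in class 9 to 89.1 CPM in class 12. The region chr16:23504076-23505075 had 26 and 74 fetal against 2 and 3 adult reads, and leaned to classes 12 and 4, at 30.0 and 23.9 CPM, over class 9, at 7.2 CPM (edgeR adjusted p among fetal classes = 0.0857). A region 5670 bases beyond the other end of the gene, chr16:23445116-23446115, went the other way, with 0 and 8 fetal and 39 and 57 adult reads, and averaged 38.1 CPM in adult classes 1 and 8 against 0.7 CPM in classes 3 and 7.

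At Nipal4 the start was open at both stages. The promoter region chr11:46165847-46166846, with the Nipal4 stretch and its TFAP2 matches, had 71 and 166 fetal and 50 and 142 adult reads, a log2 difference of 0.95. It averaged 92.4 CPM in fetal class 12 and 76.4 CPM in class 4, but 116.2 CPM in adult classes 1 and 8. The largest fetal excess in CPM among its distal regions lay upstream. The region chr11:46209545-46210544, 43.7 kb upstream, had 118 and 320 fetal and 82 and 151 adult reads, a log2 difference of 1.55. Its 4 fetal class means lay at 60.9 to 81.6 CPM, with class 5 at 38.9 and 91.7 CPM in the 2 libraries. Adult classes 1 and 8 averaged 52.7 CPM there, and 3 of the 8 fetal sums lay above all 14 adult sums. The region chr11:46169558-46170557, 3.70 kb upstream, had 75 and 192 fetal against 40 and 57 adult reads, a log2 difference of 2.09. There 7 of the 8 fetal sums lay above all 14 adult sums. It was highest in class 5, at 70.4 CPM, without passing the test among fetal classes (edgeR adjusted p = 0.0911).

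Of the 38 distal regions of the loci with enough reads per fetal class, 4 differed among the fetal classes, beside 8.73% of 26719 distal regions, and 3 of the 4 lay near Nipal4. They were chr11:46160239-46161238 (edgeR adjusted p = 0.0233), chr11:46177254-46178253 (0.0105) and chr11:46205181-46206180 (0.0145). The last of these was at 57.2 CPM in class 4 and at 6.5 to 17.5 CPM in the other fetal classes, and at 60.3 CPM in adult classes 1 and 8. The fourth, chr12:26394441-26395440 in Rnf144a, was lost with DESeq2 (adjusted p = 0.0537).

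Izumo1r had a promoter region just upstream, chr9:14904011-14905010, with 49 and 125 fetal and 18 and 52 adult reads, a log2 difference of 1.93, and of 2.65 without adult replicate 2. It averaged 81.8 CPM in class 4, 68.2 in class 12, 32.5 in class 5 and 17.9 in class 9, and 48.9 CPM in adult classes 1 and 8 against 3.7 CPM in classes 3 and 7. The distal region chr9:14841970-14842969, 61.3 kb downstream of the start, had another order, at 12.8 CPM in class 4 and means of 37.4 to 47.3 CPM in the other fetal classes. That difference did not pass (edgeR adjusted p = 0.149), and class 12 alone ran from 18.6 to 60.8 CPM between the libraries.

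No promoter region lay in the Gpr37l1 window, and the nearest one, in Arl8a, was level between the stages (51 and 119 fetal, 156 and 147 adult reads, log2 -0.25). The regions with a fetal excess given here were distal. The region chr1:135198616-135199615, 31.4 kb upstream, had 99 and 246 fetal and 48 and 59 adult reads and was highest in class 5, at 84.2 CPM, against 42.4 to 53.9 CPM in the other fetal classes, a difference that did not pass (edgeR adjusted p = 0.109). Downstream, chr1:135158102-135159101 had 40 and 107 fetal against 14 and 26 adult reads. Of the 20 distal regions tested around this gene, 5 were called higher and 4 lower in fetal nuclei, beside 16.6% and 18.8% of all distal regions tested.

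Il12a had 1 promoter region within reach, chr3:68689415-68690414, whose centre lies 0.73 kb upstream of a RefSeq start. It had 46 and 129 fetal and 13 and 16 adult reads, at 34.1 ± 3.57 against 3.85 ± 0.120 CPM (SD, n = 2), a log2 difference of 3.15. Class 12 was highest at 72.6 CPM, classes 5 and 9 stood at 39.6 and 38.4 CPM, and class 4 was lowest at 11.5 CPM, with no read in replicate 1. None of its 12 tested distal regions was called higher in fetal nuclei and 3 were called lower, beside 16.6% and 18.8% of all distal regions tested. The largest fetal excess in CPM among the 12 was at chr3:68693362-68694361. Its log2 value lay between 1.29 and 1.55 when 1 library was left out in turn. One of the 3 lower regions, chr3:68709348-68710347, 18.4 kb downstream, averaged 101.7 CPM in adult classes 3 and 7.

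At Rnf144a the start and the sites beside it behaved differently. The region over the start, chr12:26414691-26415690, had 71 and 156 fetal and 85 and 144 adult reads, a log2 difference of 0.62. The neighbouring promoter region chr12:26416343-26417342, 1.58 kb upstream, had 71 and 132 fetal and 8 and 7 adult reads, a log2 difference of 4.38. The distal region chr12:26394441-26395440, 20.3 kb into the gene, had 97 and 248 fetal and 10 and 10 adult reads, a log2 difference of 4.71. Every fetal class carried these last regions, from 30.6 CPM in class 9 to 111.1 CPM in class 12 at the promoter region and from 37.0 CPM in class 9 to 81.2 CPM in class 5 at the distal one. The distal region is the Rnf144a region named above that differed among the fetal classes, so its level was not even. That call was kept in 4 of 5 alternative settings.

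Ppfibp1 repeated that form over a longer gene. Its start region, chr6:146887893-146888892, had 174 and 356 fetal and 326 and 432 adult reads, a log2 difference of 0.11, and stood between 96.8 and 135.0 CPM in the fetal classes and at 104.2 to 123.9 CPM in the adult groups. An internal promoter region 67.5 kb downstream, chr6:146955497-146956496, had 90 and 228 fetal and 14 and 31 adult reads, a log2 difference of 3.41. That region was at 108.9 CPM in class 12, 90.1 in class 5, 88.6 in class 4 and 44.8 in class 9, and in adult nuclei at 29.7 CPM in classes 1 and 8 and 0.5 CPM in classes 2 and 11. Around this gene, 9 of 31 tested distal regions were called higher and 3 lower in fetal nuclei, beside 16.6% and 18.8% of all distal regions tested. The largest fetal excess in CPM among the 31 was at chr6:146893553-146894552. Its log2 value lay between 1.56 and 1.93 when 1 library was left out in turn.

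**Figure D4:**
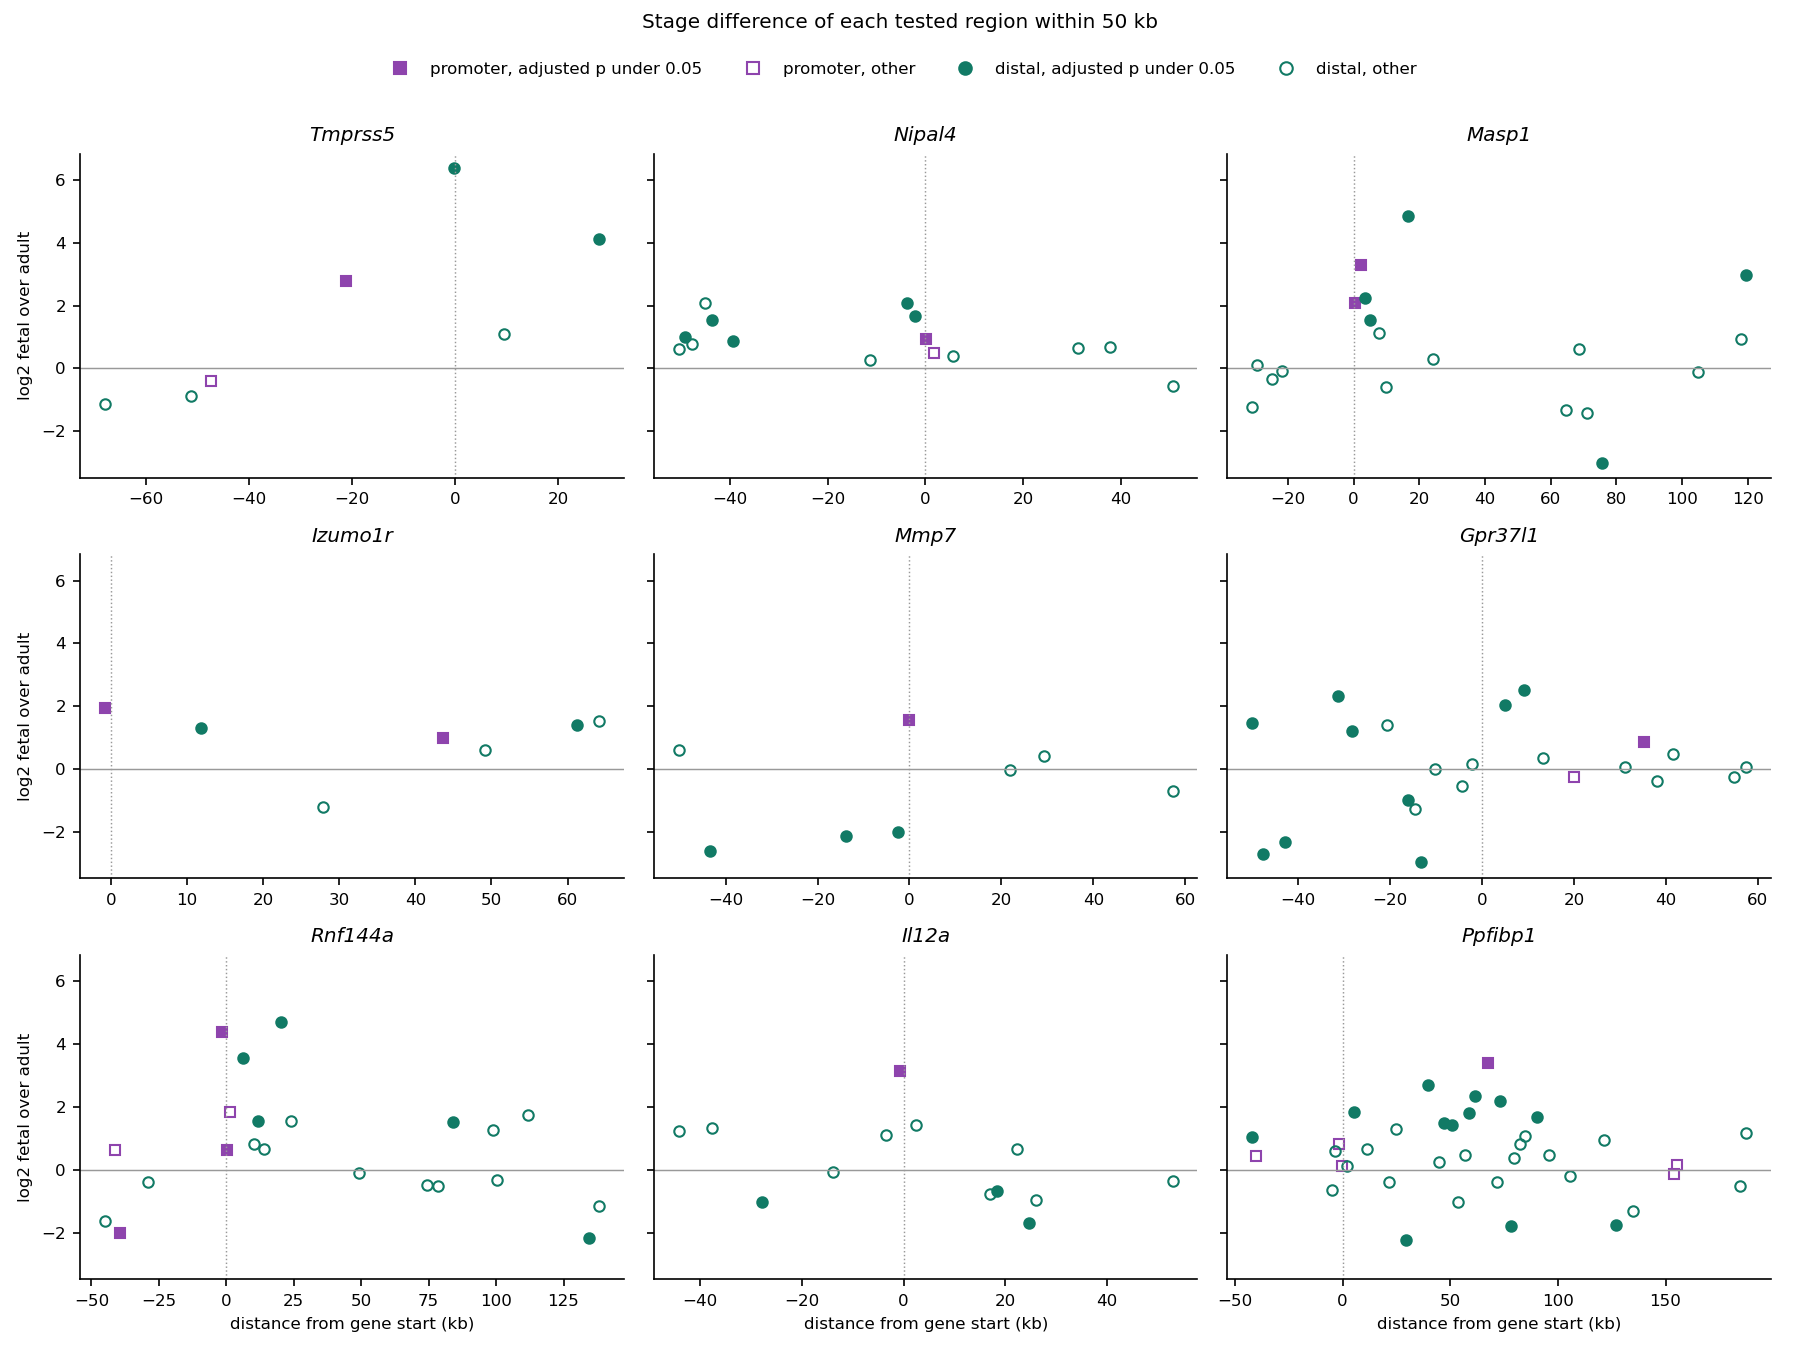
Log2 fetal-over-adult value (y axis) of each tested region within 50 kb of a gene span, against the distance of its centre from the RefSeq start in kb in the direction of transcription (for Masp1, from the end of the annotated span with the higher coordinate). Squares are promoter and circles distal regions, filled where the adjusted p was under 0.05. The filling is a description, since fetal and adult reads made the choice of the loci. The Tmprss5 start stands at 6.37, the 3 called distal regions of Mmp7 lie below 0, and the start regions of Rnf144a and Ppfibp1 lie at 0.62 and 0.11.

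The authors' deposited Cicero scores give, for pairs of regions, how far they tend to be open in the same nuclei. They were made over all nuclei of both stages, so sites open at the same stage can score together without any contact between them, and the scores are not independent of the choice of the loci. Of all 6359756 pairs, 2.63% scored at least 0.1. Among pairs with a region in the window of a locus the share was 19.8% for Nipal4, 16.7% for Izumo1r, 7.17% for Tmprss5, 5.54% for Masp1, 4.51% for Il12a, 3.99% for Gpr37l1, 3.95% for Mmp7, 2.92% for Ppfibp1 and 2.02% for Rnf144a. The top partner of the Tmprss5 start was the region 28.2 kb away that was also read mainly in fetal nuclei (score 0.460). The 2 Rnf144a regions with few adult reads, 21.9 kb apart, were each other's top partner (0.552). At Ppfibp1 the internal promoter region scored 0.487 with a distal region 16.9 kb away. The highest score of the 9 loci, 0.638, joined the Nipal4 start to the region 39.3 kb away, inside Cyfip2, that was read in fetal class 4 and adult classes 1 and 8.

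Outside the epithelial classes the loci separated. Class 6, which has the highest stromal marker sums (684 to 797 CPM) and holds nuclei of both stages, had the highest mean Rnf144a level of any class at either stage, at 145 and 227 CPM in fetal and 202 and 99.97 CPM in adult sums. Its fetal sums rest on 23 and 33 nuclei. Tmprss5 was at 16.1 and 7.33 CPM in fetal class 6, on 2 reads each, and none of the fetal reads in the Tmprss5 start region came from this class. Il12a reached 31.8 CPM in class 6 of adult replicate 2. Fetal class 13, with 40 and 66 nuclei, had no read of Mmp7, 0 and 8.43 CPM of Tmprss5, and 62.0 and 69.6 CPM of Masp1.

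Genes of the same families were counted for comparison. Of 76 related genes tested, 10 were higher and 12 lower in fetal nuclei (edgeR adjusted p under 0.05), beside 11.3% and 10.9% of all genes, and their median log2 value was -0.06. The count was 14 without fetal replicate 1 and 14 without fetal replicate 2. Among the type II serine proteases 1 of 14 was higher and 2 lower, and Tmprss13 was lower at 26.7 and 22.0 CPM in fetal against 61.2 and 43.6 CPM in adult libraries (log2 -1.13, SE 0.181, adjusted p = 0.000765). Of 7 lectin pathway genes, 2 were higher and 2 lower. Colec11, a collectin that recognises sugars, was at 14.6 and 14.02 CPM against 1.99 and 6.06 CPM (log2 1.79, SE 0.399, adjusted p = 0.00617; 2.81 without adult replicate 2), while the recognition proteins Fcna and Mbl1 were lower at log2 values of -1.77 (adjusted p = 0.00157) and -1.72 (adjusted p = 0.00366). Among 23 matrix metalloproteinases and their inhibitors 3 were higher and 2 lower, with Mmp23 at log2 0.65 (adjusted p = 0.00728).

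The NIPA-like family had no higher member among 5, and Nipal1 was lower at 26.0 and 28.3 CPM in fetal against 64.96 and 71.9 CPM in adult libraries (log2 -1.32, SE 0.137, adjusted p = 3.6e-05). Folr2, of the folate receptor family of Izumo1r, was lower at log2 -0.89 (adjusted p = 0.000428), and at -1.63 over the span without flanks. Gpr37, the closest relative of Gpr37l1, was at 15.0 and 16.2 CPM against 9.48 and 10.1 CPM (log2 0.68, adjusted p = 0.0465), a call lost without any 1 of the 4 libraries (adjusted p = 0.0801 to 0.251). Il12b, the partner chain of Il12a, was at 20.2 and 17.4 CPM against 10.6 and 11.6 CPM (log2 0.74, adjusted p = 0.0244; 1.62 over the span without flanks), with adjusted p-values of 0.139, 0.0756 and 0.0594 without fetal replicate 1, fetal replicate 2 and adult replicate 1. Of the liprins and their partners 2 of 7 were higher and none lower, led by Kank1, a binding partner of liprin beta 1, at 316.4 and 305.7 CPM against 186.0 and 165.4 CPM (log2 0.82, SE 0.0992, adjusted p = 0.000108). The RBR ubiquitin ligases had 2 lower and no higher member among 7. Of the 9 genes of the IL-12 family and its receptors, Il12b was the 1 called higher, and 2 were called lower.

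**Figure D5:**
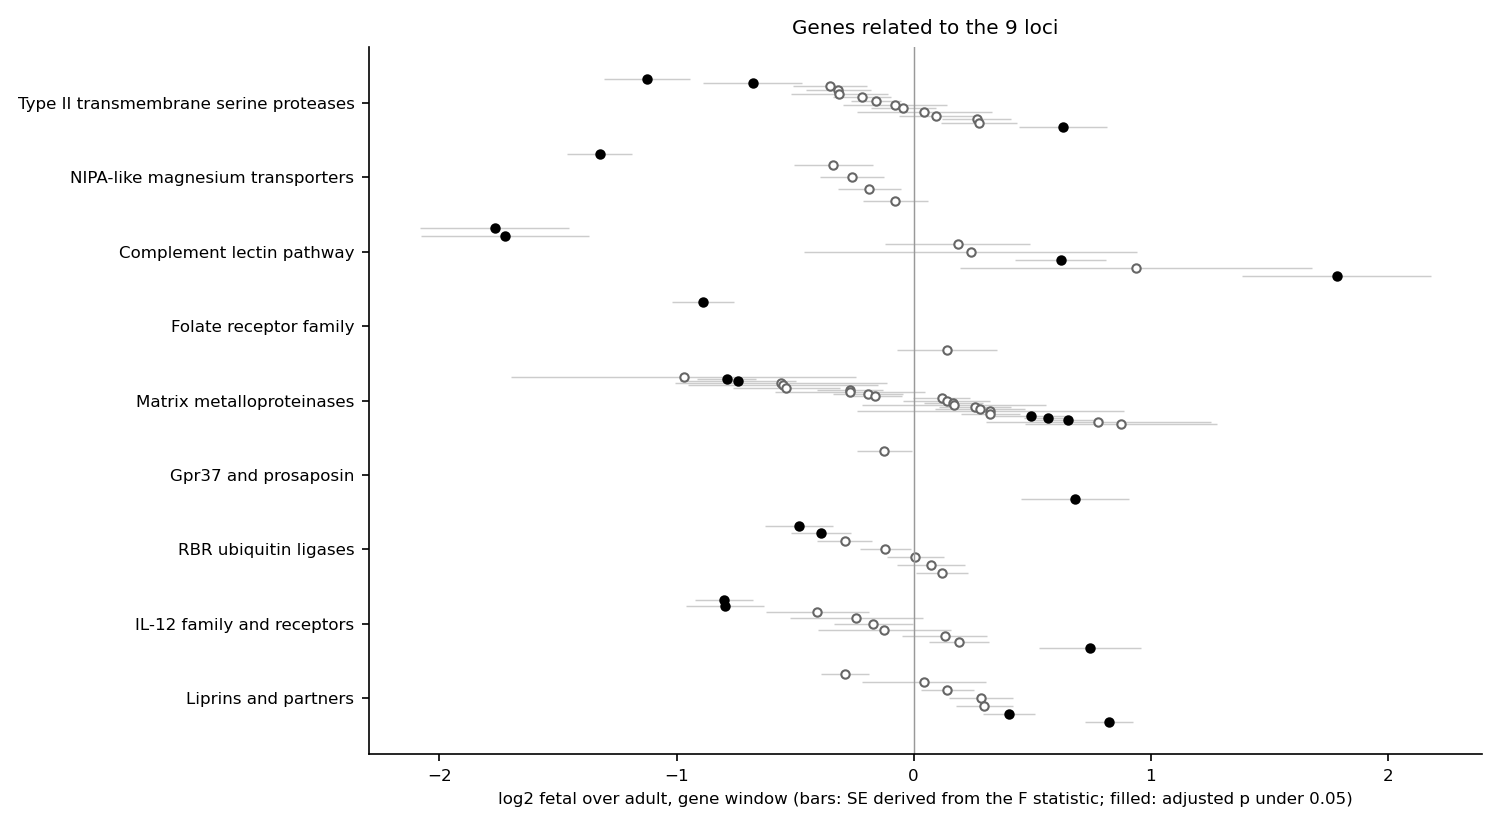
Log2 fetal-over-adult value over the gene window (x axis) of 76 genes related to the 9 loci, by family, with bars of 1 SE derived from the F statistic. Filled points passed an adjusted p of 0.05, 10 on the right and 12 on the left, with Colec11 at 1.79 and Fcna at -1.77 as the outermost called genes.

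Finally, genes with the most similar pattern over the 30 class and library sums were found by the correlation of log2 CPM with 2 added. The points share libraries and depth, so the coefficients are descriptions. Nipal4 was most like Il17b (r = 0.89) and Itm2c (0.87), Izumo1r most like Micalcl (0.89) and Cdh3 (0.88), which encodes P-cadherin, and the pair Nipal4 and Izumo1r had r = 0.83. Rnf144a was most like Adamts4 (0.90) and Dnm3 (0.88). The others were led by Vps45 for Tmprss5 (0.80), Pole2 for Mmp7 (0.79), Farp2 for Gpr37l1 (0.77), Fyn for Ppfibp1 (0.85), Zfp618 for Masp1 (0.74) and Ttyh2 for Il12a (0.71). Tmprss5 was itself the second most similar gene to Masp1 (0.72). Gpr37l1 and Rnf144a had r = -0.04, the lowest of the pairs of loci. The 30 sums include class 6, where the mean Rnf144a level was highest and Gpr37l1 had at most 4.54 CPM. Gpr37l1 averaged 18.1 reads per sum, also under the minimum of 20. The part of either in that value was not tested.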

How the data were processed

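Per the submitters' processing notes, Bowtie2, MACS2 and bedtools were used with the mm10 build; their roles and versions are not given in the sources used here. The deposited files list reads (163 to 200 bases) with barcodes, the barcodes kept as nuclei, promoter regions (21179 lines, 19204 distinct) and 145453 distal regions. In the authors' deposited table, chromVAR scores come with a class number and a read count per nucleus. The deposited read count equalled the reads found in every nucleus, and no read line was repeated within a library. How the authors shifted or filtered reads is not given in the sources used here. Cicero co-accessibility is a deposited score of the authors. The deposited gene accessibility score was not used, since its columns name no sample.

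Reads of kept nuclei were counted as counts per feature by overlap of at least 1 base and summed per library, or per class and library. Both ends of a fragment are listed as reads, so counting intervals cover counting error only and are too narrow. Kept nuclei of a library gave from 6028168 (fetal replicate 1) to 19304830 reads (adult replicate 2), so fetal replicate 1 is the least precise. Gene positions and starts are from RefSeq (GRCm38.p6); 8 of the 9 loci matched a promoter sequence. Counts were tested with edgeR 4.0.16 (quasi-likelihood, TMM, mean of at least 10 reads) in R 4.3.3, adjusted by Benjamini-Hochberg over all features, with DESeq2 1.42.0 as an alternative; class sums needed 20 nuclei. The smallest p of an exact permutation test of 2 against 2 libraries is 0.333. The stage fit and the fetal class fit, both over gene windows, were tested on simulated counts first, and the other fits were not. Counting ran in Python 3.11.15 with pandas 2.3.3 and numpy 2.4.6, exact intervals came from scipy 1.17.1, and plots were drawn in matplotlib 3.10.9. Alternatives changed scaling, filter, window, read midpoint, depth of nuclei, terms and libraries.

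The loci, the related genes, markers, motifs and tests were chosen with earlier results of these data known. All 9 loci are named whatever their values. Around each, the rule took the promoter regions in its window or the nearest one, and the distal region with the largest fetal excess in CPM. It also took the regions for which the locus was picked. Values of some of these promoter regions, around Nipal4, Masp1, Rnf144a and Ppfibp1, are not in the text. Of related genes, the rule took the 5 largest called changes in each direction. Of similar genes it took the 2 with the highest correlation, of which the text gives 1 or both. Other regions in the text were chosen after their values were seen.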

Additional observations from a re-analysis of the deposited data

Results flagged for a closer look

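The fetal-over-adult difference of Nipal4 differed between the lineages, with a log2 value 1.63 higher on the luminal progenitor side (edgeR interaction term, adjusted p = 0.00107). Nipal4 was chosen on the same fetal and adult reads, so this test is not independent of that choice. Both luminal progenitor fetal sums, 23.6 and 21.8 CPM, lay above both adult ones, 5.44 and 12.8 CPM, and both basal fetal sums, 68.1 and 65.2 CPM, lay below both adult ones, 78.1 and 86.5 CPM. The adjusted p was 0.182 without adult replicate 1.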

How the results depend on the processing

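Every locus stayed higher in fetal than in adult nuclei over its gene window under the 11 alternatives to the 4-library fit. Of called differences of the loci, those of Masp1, Izumo1r, Gpr37l1 and Nipal4 were lost in the settings named above. Labels give fetal and adult libraries the same replicate numbers without saying that they share anything. Deviations of same-numbered libraries correlated at r = 0.292 over 16707 genes, and with only 2 pairs the numbers were not taken as a pairing; a fit with the replicate number as a block called 6424 gene windows between stages against 4172 without it. Other counts that moved by over 1.5 times were, for promoter regions between stages, 2622 with DESeq2 against 3992; for distal regions between stages, 24872 with DESeq2 and 15301 at a mean of at least 50 reads, where fewer were tested, against 43423; for fetal classes over gene windows, 718 with DESeq2 and 679 with all classes in 1 fit, against 1541; for fetal classes over distal regions, 320 at 50 reads against 2332; and for the interaction, 281 with DESeq2 and 534 without library as a term, against 1036. DESeq2 gave no adjusted p for 6774 of 16638 genes among fetal classes and for 6948 of 17064 genes in the interaction. The part of this in the lower counts was not tested. Other causes were not tested either, except where fewer features entered. Leaving out 1 library in turn gave 1812 to 4459 gene windows, 2514 to 3057 promoter and 30355 to 42172 distal regions between stages, 73 to 140 genes among fetal classes, 407 to 710 in the interaction and 14 to 21 of the related genes, against 22. Of the loci, 3 were called among fetal classes, 1 with all classes in 1 fit or without flanks, and 0 without either fetal library; 6 were called among adult classes and 3 at 50 reads; 1 was called in the interaction, 0 with DESeq2, 3 with class 5 added to class 9 and 0 to 2 without a library. At a mean of at least 50 reads per adult sum, Nipal4, Izumo1r and Gpr37l1 were not tested, and all 3 loci tested kept their call. Of the distal regions of the loci, 4 were called among fetal classes. None of these 4 had enough reads to be tested at a mean of at least 50. Cicero pairs at 0.1 numbered 266 and at 0.25 73, and regions within 50 kb 172 and within 20 kb 110. Promoter differences among classes were not tested. Adult reads limit the size of the largest ratios.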
